A study of Mus musculus with 24 samples.

Results

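Smooth muscle cells and pericytes, together called mural cells where they wrap blood vessels, were followed in the ileum through 10 of the 39056 genes counted: Acta2, Myh11, Des, Tagln, Cnn1 and Actg2, which encode proteins of the contractile apparatus or its cytoskeleton, and Rgs5, Pdgfrb, Notch3 and Cspg4, which mark the mural cells of vessels. The genes were chosen by name and matched to the count table through the gene symbols of GENCODE M21, and each matched exactly 1 row. RNA-seq was performed on live CD45- cells, the fraction depleted of leukocytes, and on CD45+ cells. Both were sorted from lamina propria cells of the ileum to which a part of the separated epithelial cells had been added back. There were 3 libraries for each of 4 genotypes in each fraction. The mice were Hoil1+/+ or Hoil1-/-, each with the f/f or the ΔIEC form of Il4ra. They were on the C57BL/6 background (C57BL/6 J per the study), of both sexes, and between 9 and 10.3 weeks of age for the CD45- libraries. For the CD45+ libraries, the mice were between 9.0 and 9.9 weeks of age. Hoil1-/- mice carry a mutant Rbck1 allele in every cell. All 4 groups carry Il4ra flanked by loxP sites, and the ΔIEC groups also carry a Cre transgene under the villin promoter, which deletes Il4ra in intestinal epithelial cells (IECs) and is not designed to act in mural cells. The CD45- libraries held 6.03 to 68.35 M counts on genes, with a median of 14.83 M, so a level of 3 counts was worth between 0.0398 and 0.495 CPM (read counts scaled to library size with TMM factors).

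Contraction of the gut wall and of its arteries rests on smooth muscle alpha and gamma actin, on smooth muscle myosin and on the calponin and transgelin proteins that bind actin, all of which are classically controlled by serum response factor (SRF) and its partner myocardin through CArG boxes in their promoters. Pericytes sit on capillaries and small venules, are recruited by platelet-derived growth factor B from endothelial cells through the receptor PDGFRβ, and hold their identity in part through Notch3 signalling. In the ileum, smooth muscle forms the muscle coats, the muscularis mucosae, the strands that run up into the villi and the walls of arteries. The 6 contractile genes were not used to tell these sites apart. In sorted bulk cells, fewer cells of a type and less RNA per cell cannot be told apart, and whether the outer muscle coat was included is not given in the sources used here.

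The Acta2 promoter is shown because Acta2 was the most abundant of the 10 genes, and that of Myl9, the regulatory light chain of smooth muscle myosin, because it was the most abundant of the other smooth muscle genes measured. Both are the 250 bases before the transcription start, 5′ to 3′ on the gene's strand, from RefSeq on GRCm38.p6, at chr19:34255374-34255623 on the minus strand for Acta2 and chr2:156775214-156775463 on the plus strand for Myl9. GENCODE M21 places the start of both genes further upstream, inside these windows, so part of each window lies within the gene span of that annotation. Capitals mark matches to the CArG box (CC, 6 letters of which at most 1 is G or C, then GG), a pattern that reads the same on both strands.
Acta2: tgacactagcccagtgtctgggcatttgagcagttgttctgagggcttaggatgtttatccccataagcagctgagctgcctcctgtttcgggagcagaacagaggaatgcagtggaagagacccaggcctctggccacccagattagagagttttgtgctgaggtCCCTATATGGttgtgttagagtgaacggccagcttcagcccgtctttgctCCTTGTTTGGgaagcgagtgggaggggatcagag
Myl9: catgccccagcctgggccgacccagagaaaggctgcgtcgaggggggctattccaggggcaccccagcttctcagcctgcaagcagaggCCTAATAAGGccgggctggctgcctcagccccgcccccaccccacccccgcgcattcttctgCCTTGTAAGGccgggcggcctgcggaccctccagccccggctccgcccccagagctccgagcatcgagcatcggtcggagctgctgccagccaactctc
Matches began 84 and 34 bases before the start in Acta2 and 161 and 99 bases before it in Myl9. By GENCODE M21, both Acta2 matches lie inside the gene span, and both Myl9 matches lie before it. Such a match was held by 8.59% of the 32851 promoters of this length. Promoters were at hand for 6 of the 10 genes, and among them only that of Acta2 held a match, while those of Des, Cnn1, Rgs5, Notch3 and Cspg4 did not. Among the other smooth muscle genes, 3 of the 17 with a promoter held one. A match is a pattern of letters, and its absence says nothing about binding outside this window.

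Before the results, the labels were checked. Rbck1, the gene encoding HOIL1, was at 84.2 to 122 CPM where Hoil1 was intact (6 libraries) and between 0 and 7.94 CPM where it was not (6 libraries), with no overlap, and was called lower in Hoil1-/- cells by edgeR (log2 fold change -4.23, adjusted p = 0.00106). Il4ra was at 51.3 to 145 CPM across the ΔIEC libraries and 63.7 to 173 CPM across the f/f libraries, which does not test the deletion, since non-epithelial CD45- cells keep the gene. Ptprc, which encodes CD45, was at 0 to 17.9 CPM in the CD45- libraries, and the 2 highest values, 17.9 and 11.8 CPM, were replicates 2 and 1 of Hoil1-/-Il4ra f/f. One CD45- library, Hoil1-/-Il4ra f/f replicate 3, was removed by the study as an outlier in principal components. It held 25863 CPM of the 4 hemoglobin genes measured as red cell markers, against 1661 to 6890 CPM in the other 11, so results within f/f whose direction, or whose size by more than 1.5 times, changes with it are given with and without it. Xist was above 1 CPM, as in females, in Hoil1-/-Il4ra f/f replicate 3, replicates 1 and 2 of Hoil1+/+Il4ra ΔIEC and replicate 2 of Hoil1-/-Il4ra ΔIEC mice, and at 0 in the other 8 libraries, so that every Hoil1+/+Il4ra f/f mouse was male by this measure.

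All 10 genes belonged to the CD45- fraction. In every case the median over the 12 CD45- libraries exceeded the highest of the 12 CD45+ libraries, with both fractions scaled together. Acta2 had a median of 811 CPM (143 to 2283) in CD45- and 10.7 CPM (2.83 to 44.5) in CD45+ libraries. Rgs5, a regulator of G protein signalling typical of pericytes, had a median of 339 CPM (39.3 to 650) and 6.87 CPM (2.5 to 16.4). Cspg4, the NG2 proteoglycan of pericytes and their precursors, had a median of 39.3 CPM (12.2 to 115) and 0.337 CPM (0 to 3.07), with 4 CD45+ libraries at 0. In edgeR's quasi-likelihood test over the 21 libraries the study kept, 10 of 10 genes were higher in CD45- cells, where 25.1% of the 18778 genes tested were called higher in that direction. The log2 difference in edgeR ran from 3.40 (SE 0.61, adjusted p = 0.000199) for Actg2 to 7.81 (SE 1.03, adjusted p = 9.38e-06) for Notch3. Of the other smooth muscle genes, 17 of 17 tested were also higher in CD45- cells, as were 7 of 12 other pericyte genes, 6 of 9 ligands, 6 of 9 receptors, 3 of 4 Notch targets and 5 of 8 smooth muscle transcription factors, while 8 of 8 leukocyte markers, 1 ligand, 1 receptor and 2 of the transcription factors were lower. Red cell markers were higher in CD45- cells for 4 of 4 genes, with a median log2 difference of 7.91, so this fraction kept red cell RNA. The cells were sorted on CD45, so these differences describe the sort.

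**Figure D1:**
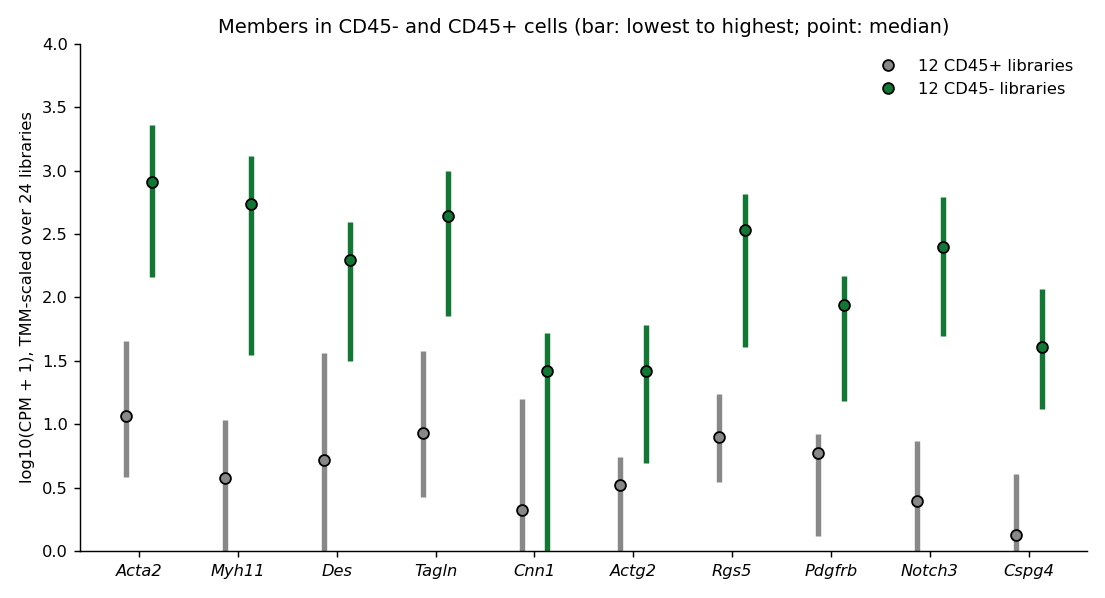
Levels of the 10 genes in the 12 CD45+ (gray) and 12 CD45- (green) libraries as log10(CPM + 1), with bars from the lowest to the highest library and points at the median. The CD45- median lay above the CD45+ bar for all 10 genes, and the bars themselves overlapped for Des, Cnn1 and Actg2.

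Per length, Acta2 was the most abundant of the 10 genes. On the scale of CPM per kilobase of exon, the mean over the 12 CD45- libraries was 519 ± 338 for Acta2 and 284 ± 178 for Tagln, an actin-binding protein also called SM22α (SD, n = 12). Myh11 followed at 90.2 ± 61, Rgs5 at 82.3 ± 37, Des at 61.8 ± 34.9 and Notch3 at 41 ± 25.4. Pdgfrb at 19 ± 7.7, Actg2 at 18.4 ± 11.8, Cnn1 at 10.3 ± 5.8 and Cspg4 at 4.82 ± 3.18 were the least abundant. Among neighbours in this order, only Tagln and Myh11 differed by more than the larger of their SDs. Acta2 and Actg2 encode closely related actins. Reads that fit both could be split or dropped, which was not tested, so the level of the less abundant Actg2 may be affected. Tagln lies across Pcsk7 and Notch3 across Gm17276 on the opposite strand. The library kit marks strand, and the strand setting of the counting is not given in the sources used here.

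The genes varied widely between libraries within the CD45- fraction. Between the lowest and the highest of the 12 libraries, the CPM of a gene differed 8.92-fold for Cspg4, 15.2-fold for Acta2, 15.5-fold for Rgs5 and 35.2-fold for Myh11, smooth muscle myosin heavy chain. Hoil1-/-Il4ra f/f replicate 1 was among the 2 lowest libraries for 10 of 10 genes. Hoil1-/-Il4ra f/f replicate 3 was among the 2 lowest for 8 of 10, with Rgs5 and Pdgfrb the exceptions. Hoil1+/+Il4ra f/f replicate 3 was among the 3 highest for 9 of 10 genes, and replicate 2 of Hoil1+/+Il4ra f/f and of Hoil1-/-Il4ra ΔIEC for 8 each. High and low libraries were thus largely shared among the 10 genes.

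Within f/f mice, the contractile genes were at lower levels in every Hoil1-/- library than in any Hoil1+/+ library, and within ΔIEC mice the direction was the opposite. The summed level of the 6 contractile genes was 3635, 4498 and 5573 CPM in Hoil1+/+Il4ra f/f and 514, 2206 and 344 CPM in Hoil1-/-Il4ra f/f libraries. The means were 4569 ± 971 and 1021 ± 1029 CPM (SD, n = 3 each), which is 4.47-fold lower in Hoil1-/-Il4ra f/f. In ΔIEC mice, the sum was 1325, 1616 and 2110 CPM in Hoil1+/+Il4ra ΔIEC and 2335, 4515 and 3478 CPM in Hoil1-/-Il4ra ΔIEC libraries, with means of 1684 ± 397 and 3443 ± 1090 CPM, or 2.04-fold higher in Hoil1-/-Il4ra ΔIEC. In neither pair did the groups overlap. Within Hoil1+/+ mice, the f/f libraries also lay above the ΔIEC libraries without overlap, by 2.71-fold in the means, and that pair was not tested. No single gene of the 6 passed an adjusted p of 0.05 in edgeR's quasi-likelihood test over 11 libraries for the Hoil1 differences, as given below.

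Acta2, smooth muscle alpha actin (ENSMUSG00000035783.8, chromosome 19, 34241090 to 34255590, minus strand, GRCm38), was at 1431, 1851 and 2577 CPM in Hoil1+/+Il4ra f/f libraries. It was at 189, 905 and 170 CPM in Hoil1-/-Il4ra f/f, at 588, 672 and 820 CPM in Hoil1+/+Il4ra ΔIEC and at 911, 1790 and 1777 CPM in Hoil1-/-Il4ra ΔIEC libraries. The Hoil1-/- libraries were thus all below the Hoil1+/+ libraries within f/f and all above them within ΔIEC. Over the 11 libraries the study kept, the log2 fold change of Hoil1-/- against Hoil1+/+ was -1.84 (SE 0.62, 95% interval -3.20 to -0.47, adjusted p = 0.338) within f/f and 1.10 (SE 0.52, -0.05 to 2.26, adjusted p = 0.628) within ΔIEC by edgeR's quasi-likelihood test.

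Tagln (ENSMUSG00000032085.5, chromosome 9, 45929619 to 45936058, minus strand) showed the same arrangement. It was at 720, 934 and 1123 CPM in Hoil1+/+Il4ra f/f and 87.9, 471 and 83.1 CPM in Hoil1-/-Il4ra f/f libraries. In ΔIEC mice it was at 272, 320 and 407 CPM in Hoil1+/+ and 518, 882 and 961 CPM in Hoil1-/- libraries. Neither pair overlapped, and the log2 fold changes in edgeR were -1.73 (SE 0.61, adjusted p = 0.35) and 1.24 (SE 0.52, adjusted p = 0.628).

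Myh11 (ENSMUSG00000018830.8, chromosome 16, 14194535 to 14291372, minus strand), a marker of mature smooth muscle, was at 1040, 1208 and 1349 CPM in Hoil1+/+Il4ra f/f and 187, 597 and 40.3 CPM in Hoil1-/-Il4ra f/f libraries. The ΔIEC values were 287, 400 and 622 CPM in Hoil1+/+ and 642, 1419 and 433 CPM in Hoil1-/- libraries. The f/f groups did not overlap, while in ΔIEC mice Hoil1-/-Il4ra ΔIEC replicate 3 fell inside the Hoil1+/+ range. The edgeR log2 fold changes were -1.61 (SE 0.62, adjusted p = 0.361) and 0.93 (SE 0.53, adjusted p = 0.651).

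Des, the muscle intermediate filament desmin (ENSMUSG00000026208.9, chromosome 1, 75360329 to 75368579, plus strand), was at 336, 432 and 415 CPM in Hoil1+/+Il4ra f/f and 35.2, 182 and 44.5 CPM in Hoil1-/-Il4ra f/f libraries. In ΔIEC mice it was at 132, 173 and 227 CPM in Hoil1+/+ and 210, 349 and 247 CPM in Hoil1-/- libraries, which overlapped. The log2 fold change in edgeR was -1.86 (SE 0.59, adjusted p = 0.315) within f/f and 0.60 (SE 0.49, adjusted p = 0.77) within ΔIEC.

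Calponin 1 and smooth muscle gamma actin were the 2 scarce contractile genes. Cnn1 (ENSMUSG00000001349.5, chromosome 9, 22099216 to 22109630, plus strand) was at 58.3, 36.7 and 41.3 CPM in Hoil1+/+Il4ra f/f, 11.1, 25.2 and 0 CPM in Hoil1-/-Il4ra f/f, 12.7, 36.4 and 21 CPM in Hoil1+/+Il4ra ΔIEC and 32.1, 39.1 and 23.1 CPM in Hoil1-/-Il4ra ΔIEC libraries. The 0 in Hoil1-/-Il4ra f/f replicate 3 allows up to 0.4 CPM, the worth of 3 counts there, which covers counting error only. Actg2 (ENSMUSG00000059430.14, chromosome 6, 83512905 to 83536265, minus strand), the actin of visceral smooth muscle, was at 50.5, 35.9 and 67.1 CPM in Hoil1+/+Il4ra f/f, 4.58, 25.2 and 6.67 CPM in Hoil1-/-Il4ra f/f, 32.1, 14.7 and 12.4 CPM in Hoil1+/+Il4ra ΔIEC and 21.9, 36.1 and 37.3 CPM in Hoil1-/-Il4ra ΔIEC libraries. For both genes, the f/f groups did not overlap and the ΔIEC groups did. The edgeR log2 fold change within f/f was -1.32 (SE 0.51, adjusted p = 0.361) for Cnn1 and -1.77 (SE 0.68, adjusted p = 0.361) for Actg2.

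**Figure D2:**
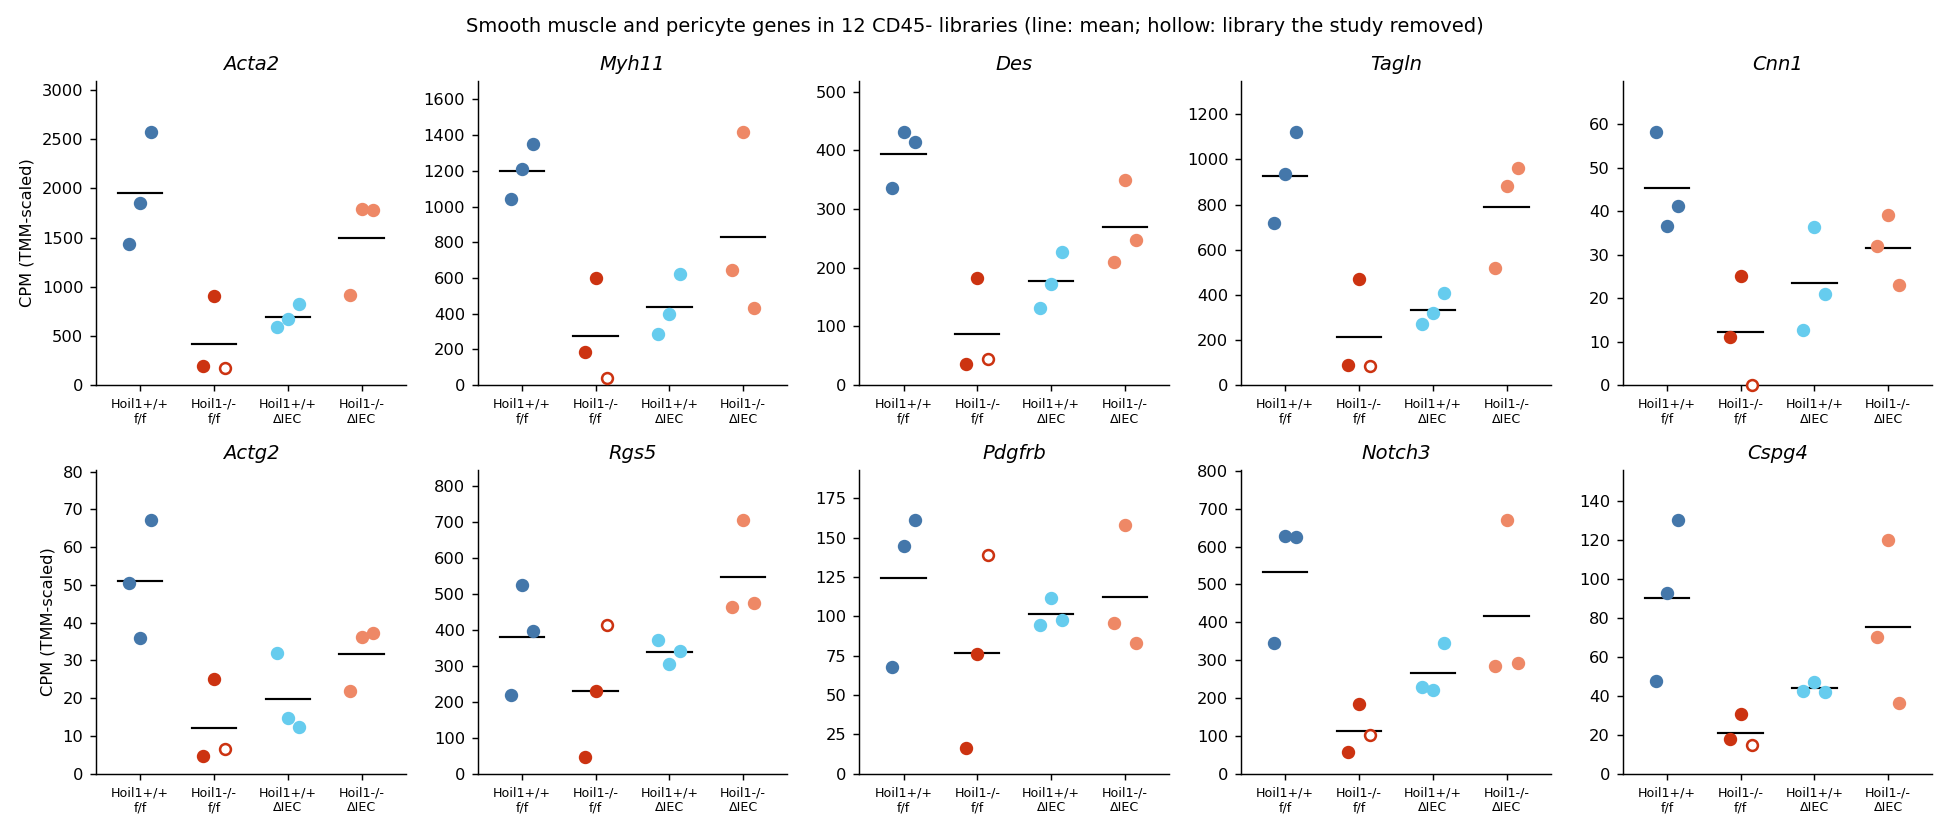
CPM (TMM-scaled) of each of the 10 genes in the 12 CD45- libraries by genotype, 1 point a library, with a line at the group mean and a hollow point for the library the study removed. Acta2 in Hoil1-/-Il4ra f/f libraries sits at 170 to 905 CPM, under all Hoil1+/+Il4ra f/f libraries at 1431 to 2577 CPM, while Rgs5 and Pdgfrb overlap within f/f.

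The 4 vascular mural genes were less alike than the contractile genes. Their summed level was 678, 1391 and 1312 CPM in Hoil1+/+Il4ra f/f and 136, 521 and 669 CPM in Hoil1-/-Il4ra f/f libraries, and 740, 685 and 826 CPM in Hoil1+/+Il4ra ΔIEC and 914, 1651 and 888 CPM in Hoil1-/-Il4ra ΔIEC libraries. Neither pair overlapped, although the lowest Hoil1+/+Il4ra f/f library (678 CPM) lay close to the highest Hoil1-/-Il4ra f/f library (669 CPM). The means were 1127 ± 391 and 442 ± 276 CPM within f/f and 750 ± 70.8 and 1151 ± 433 CPM within ΔIEC (SD, n = 3 each).

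Notch3 (ENSMUSG00000038146.7, chromosome 17, 32120820 to 32166852, minus strand), the Notch receptor of arterial smooth muscle and pericytes, was at 345, 628 and 625 CPM in Hoil1+/+Il4ra f/f and 56.4, 185 and 101 CPM in Hoil1-/-Il4ra f/f libraries. It was at 230, 221 and 344 CPM in Hoil1+/+Il4ra ΔIEC and 284, 669 and 293 CPM in Hoil1-/-Il4ra ΔIEC libraries. The f/f groups were separate and the ΔIEC groups overlapped. Within f/f, Notch3 had the lowest p of the 10 genes in edgeR, with a log2 fold change of -2.14 (SE 0.60, unadjusted p = 0.00421, adjusted p = 0.279), against 0.65 (SE 0.49, adjusted p = 0.742) within ΔIEC.

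Cspg4 (ENSMUSG00000032911.6, chromosome 9, 56865033 to 56899870, plus strand) was at 47.5, 92.6 and 130 CPM in Hoil1+/+Il4ra f/f and 17.6, 30.8 and 14.5 CPM in Hoil1-/-Il4ra f/f libraries, which did not overlap. The ΔIEC libraries overlapped, at 42.5, 47.2 and 41.8 CPM in Hoil1+/+ and 70, 120 and 36.4 CPM in Hoil1-/- mice. The edgeR log2 fold changes were -1.89 (SE 0.55, adjusted p = 0.291) and 0.79 (SE 0.46, adjusted p = 0.652).

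Rgs5 and Pdgfrb departed from the other 8 genes in the library that the study removed. They also did so in Hoil1+/+Il4ra f/f replicate 1, which was among the 2 lowest libraries for these 2 genes only. Rgs5 (ENSMUSG00000026678.10, chromosome 1, 169655501 to 169695813, plus strand) was at 218, 525 and 397 CPM in Hoil1+/+Il4ra f/f and 45.3, 229 and 414 CPM in Hoil1-/-Il4ra f/f libraries. In ΔIEC mice it was at 373, 305 and 342 CPM in Hoil1+/+ and 464, 705 and 475 CPM in Hoil1-/- libraries. Rgs5 overlapped within f/f and did not within ΔIEC, where all Hoil1-/- libraries were higher. Pdgfrb (ENSMUSG00000024620.11), the receptor for platelet-derived growth factor B on pericytes and fibroblasts, was at 67.8, 145 and 161 CPM in Hoil1+/+Il4ra f/f, 16.3, 75.8 and 139 CPM in Hoil1-/-Il4ra f/f, 94.8, 112 and 97.6 CPM in Hoil1+/+Il4ra ΔIEC and 96.1, 158 and 82.8 CPM in Hoil1-/-Il4ra ΔIEC libraries. Pdgfrb overlapped in both pairs. Both genes overlapped within f/f without the removed library as well. Hoil1-/-Il4ra f/f replicate 2 (229 and 75.8 CPM) lay above Hoil1+/+Il4ra f/f replicate 1 (218 and 67.8 CPM). Over the 11 libraries, the edgeR log2 fold change within f/f was -1.47 (SE 0.61, adjusted p = 0.364) for Rgs5 and -1.44 (SE 0.60, adjusted p = 0.366) for Pdgfrb, and with Hoil1-/-Il4ra f/f replicate 3 included it was -0.73 and -0.69.

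In that library, the ratio of the contractile to the mural sum was 0.515, against 1.79 to 5.36 in the other 11. Its contractile sum of 344 CPM stood beside 9736 CPM of fibroblast markers, the second highest of the 12 libraries, so fibroblast RNA was abundant where contractile RNA was scarce. Endothelial markers were at 5082 CPM there, inside the range of 1323 to 8283 CPM of the other libraries.

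Counted over the genes, 8 of 10 were lower in every Hoil1-/-Il4ra f/f than in every Hoil1+/+Il4ra f/f library, the 6 contractile genes with Notch3 and Cspg4, where 10.7% of the 15332 genes tested over 12 libraries did the same. In ΔIEC mice, 3 of 10, Acta2, Tagln and Rgs5, were higher in every Hoil1-/- library, beside 6.82% of all genes. Acta2 and Tagln, 2 of 10, did both, beside 1.13% of all genes. Without Hoil1-/-Il4ra f/f replicate 3, the same 8, 3 and 2 genes did so, and the share of all genes became 20.3%, 6.82% and 2.02%.

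Whether any of the 10 was called depended on the test. In edgeR's quasi-likelihood test over the 11 libraries, 0 of 10 passed an adjusted p of 0.05 within f/f, where 0.0365% of 16453 genes were called, 6 genes in all. All 10 had an unadjusted p under 0.05 there, from 0.00421 to 0.0346, beside 13.1% of all genes, and adjusted p values ran from 0.279 to 0.366. Within ΔIEC, 0 of 10 passed beside 0.00608% of all genes, and 1 of 10, Tagln, had an unadjusted p under 0.05 (0.0364), beside 7.66% of all genes. The median log2 fold change of the 10 genes was -1.75 within f/f and 0.69 within ΔIEC, against -0.17 and 0.06 over all genes tested. By DESeq2, 4 of 10 passed within f/f (Acta2, Des, Notch3 and Cspg4, with adjusted p from 0.0101 to 0.0465) among 613 of 16453 genes called in all, and by edgeR's likelihood ratio test 1 of 10 (Notch3, adjusted p = 0.0457) among 350. Both tools called 0 of 10 within ΔIEC, and edgeR's exactTest called 0 in both. With the sex of the mice as a term, 0 of 10 were called in either pair. That term cannot adjust the difference within f/f, since Xist was at 0 in every f/f library of these 11. With all 12 libraries, 0 of 10 were called and 7 of 10 had an unadjusted p under 0.05 within f/f, beside 9.05% of all genes. The result within f/f rested on few libraries, since without Hoil1-/-Il4ra f/f replicate 2 the test called 7 of 10 genes with a median log2 fold change of -3.15, among 474 of 17517 genes called in all, and without replicate 1 it called 0 with a median of -1.02. With either left out, the Hoil1-/-Il4ra f/f group held 1 library, which was assumed to vary like the other groups.

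**Figure D3:**
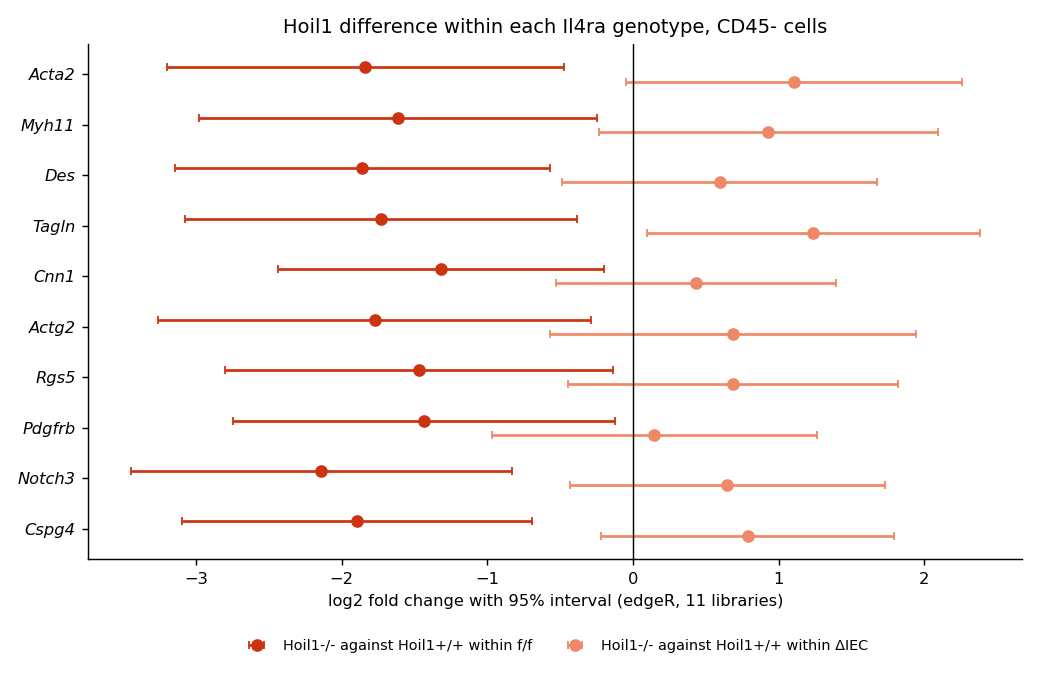
Log2 fold change of Hoil1-/- against Hoil1+/+ in CD45- cells within f/f (dark) and within ΔIEC (light) for each of the 10 genes, over 11 libraries, with 95% intervals from edgeR. All 10 estimates lie below 0 within f/f, from -2.14 to -1.32, and above 0 within ΔIEC, from 0.15 to 1.24, and 9 of the 10 ΔIEC intervals reach 0.

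Whether the Hoil1 difference depended on Il4ra was tested as the interaction, the Hoil1 log2 difference in ΔIEC minus that in f/f. It was above 0 for all 10 genes, from 1.58 for Pdgfrb to 2.97 for Tagln, with 2.94 (SE 0.81, 95% interval 1.16 to 4.73, adjusted p = 0.129) for Acta2, 2.79 (SE 0.76, adjusted p = 0.129) for Notch3 and 2.68 (SE 0.71, adjusted p = 0.125) for Cspg4 in edgeR. The median over the 10 genes was 2.50, against 0.29 over all genes. In edgeR's quasi-likelihood test 0 of 10 were called, as was 0% of all 16453 genes, while 9 of 10, all but Pdgfrb, had an unadjusted p under 0.05 beside 20.7% of all genes. DESeq2 and the likelihood ratio test each called 6 of 10, namely Acta2, Myh11, Des, Tagln, Notch3 and Cspg4, among 1466 and 1223 genes in all. Without Hoil1-/-Il4ra f/f replicate 2, the quasi-likelihood test called 7 of 10, among 723 of 17517 genes called in all, with a median of 3.82. Without replicate 1 of that group it called 0 of 10, with a median of 1.83 and 7 at an unadjusted p under 0.05 beside 11.81% of all genes. With all 12 libraries it called 0 of 10, and 7 had an unadjusted p under 0.05 beside 14.03% of all genes. The interaction then was above 0 for 10 of 10, with a median of 2.82. For Rgs5 and Pdgfrb, the f/f part of it was smaller with the removed library included, as given above.

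Averaged over the Il4ra genotypes, the Hoil1 difference was smaller than within f/f over the 11 libraries. The log2 fold change in edgeR was below 0 for all 10 genes, from -0.75 (SE 0.37, adjusted p = 0.927) for Notch3 to -0.25 for Tagln. In edgeR 0 of 10 were called, beside 0.0182% of all genes, and 0 of 10 had an unadjusted p under 0.05, beside 5.28%. DESeq2 and the likelihood ratio test also called 0 of 10. Without Hoil1-/-Il4ra f/f replicate 2, the median over the 10 genes went from -0.49 to -1.16. Without replicate 1 of that group it was -0.19, with 1 of 10 above 0. Either of these fits left 1 library in that group. The Il4ra difference, ΔIEC against f/f averaged over the Hoil1 genotypes, ran in edgeR from -0.19 for Myh11 to 0.92 for Rgs5 (SE 0.39, unadjusted p = 0.0399, adjusted p = 0.808). There too edgeR, DESeq2 and the likelihood ratio test called 0 of 10, and edgeR called 0% of all genes. Rgs5 was the 1 of 10 under an unadjusted p of 0.05 in edgeR, beside 5.90% of all genes. Without Hoil1-/-Il4ra f/f replicate 2, the edgeR log2 fold change of Rgs5 for the Il4ra difference was 1.72. The lowest Rgs5 value with a library left out was 0.55. With all 12 libraries it was also 0.55, and Rgs5 was not called.

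Other smooth muscle genes followed the same arrangement. Of the 18 measured, 17 were tested, and Pcp4, named after its values were seen, had no count in any CD45- library. All 17 had a log2 fold change below 0 within f/f and above 0 within ΔIEC, with medians of -1.43 and 0.93. By edgeR 0 of 17 were called in either, 8 had an unadjusted p under 0.05 within f/f and 2 within ΔIEC, beside 13.1% and 7.66% of all genes. Over 12 libraries, 14 of 18 were lower in every Hoil1-/-Il4ra f/f library, 8 of 18 were higher in every Hoil1-/-Il4ra ΔIEC library, and 7 of 18 did both, beside 10.7%, 6.82% and 1.13% of all genes. Myl9, the most abundant of the list and shown above by its promoter, was at 574, 691 and 873 CPM in Hoil1+/+Il4ra f/f, 62.8, 380 and 95.2 CPM in Hoil1-/-Il4ra f/f, 212, 236 and 345 CPM in Hoil1+/+Il4ra ΔIEC and 387, 756 and 571 CPM in Hoil1-/-Il4ra ΔIEC libraries. Its groups overlapped in neither pair. Myocd, which encodes myocardin, the coactivator of SRF that drives smooth muscle genes, was at 12.2, 16.2 and 16.4 CPM in Hoil1+/+Il4ra f/f and 0, 4.48 and 0 CPM in Hoil1-/-Il4ra f/f libraries, with overlap within ΔIEC (8.41, 8.23 and 4.52 against 10.1, 18.6 and 4.12 CPM). Its edgeR log2 fold change within f/f was -2.70 (SE 1.26, adjusted p = 0.39).

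Other pericyte genes were split. All 12 tested were below 0 within f/f and 10 of 12 above 0 within ΔIEC, with 0 called by edgeR in either and 7 and 1 at an unadjusted p under 0.05, beside 13.1% and 7.66% of all genes. The medians, with genes that had no count in a group put at the bound that 3 counts over the group allow, were -1.72 and 0.79. With all 12 libraries, 3 of 12 were above 0 within f/f, 3 had an unadjusted p under 0.05 and the median was -1.28. Mcam, the adhesion molecule CD146 of mural and endothelial cells and the most abundant of the list, was at 201, 470 and 421 CPM in Hoil1+/+Il4ra f/f, 63.3, 183 and 296 CPM in Hoil1-/-Il4ra f/f, 210, 185 and 346 CPM in Hoil1+/+Il4ra ΔIEC and 450, 704 and 202 CPM in Hoil1-/-Il4ra ΔIEC libraries, overlapping in both pairs. Abcc9, a subunit of the ATP-sensitive potassium channel of pericytes, was highest in Hoil1-/-Il4ra f/f replicate 3 and in replicates 1 and 2 of Hoil1+/+Il4ra ΔIEC. It was at 0, 0 and 38.5 CPM in Hoil1-/-Il4ra f/f and 35.8, 25.6 and 2.96 CPM in Hoil1+/+Il4ra ΔIEC libraries, against 0.711, 5.06 and 5.91 CPM in Hoil1+/+Il4ra f/f and 9.61, 14 and 1.48 CPM in Hoil1-/-Il4ra ΔIEC libraries. Its high value in the library the study removed stood beside those of Rgs5 and Pdgfrb.

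Ligands that act on mural cells were at lower levels in Hoil1-/- within f/f for 9 of 9 genes and at higher levels within ΔIEC for 9 of 9, with median log2 fold changes of -1.65 and 0.58. By edgeR 0 of 9 were called in either, and 6 and 1 had an unadjusted p under 0.05, where 13.1% and 7.66% of all genes did, as for each list that follows. The size within f/f rested on which libraries were used, since with all 12 the median was -0.54 and 2 had an unadjusted p under 0.05. Dll4, the endothelial Notch ligand and the most abundant of them, was at 88.1, 160 and 72.4 CPM in Hoil1+/+Il4ra f/f and 69.5, 65.3 and 126 CPM in Hoil1-/-Il4ra f/f libraries, which overlapped (log2 fold change -0.67, SE 0.65, adjusted p = 0.634 in edgeR, and -0.30 with all 12 libraries). Edn1, the vasoconstrictor endothelin 1, was at 44.1, 114 and 71.8 CPM in Hoil1+/+Il4ra f/f and 10.1, 25.7 and 34.9 CPM in Hoil1-/-Il4ra f/f libraries, which did not (log2 fold change -2.10, SE 0.74, adjusted p = 0.35 in edgeR). Of 9 receptors for mural signals, 9 were below 0 within f/f and 8 above 0 within ΔIEC, with 4 and 0 at an unadjusted p under 0.05 and 0 called by edgeR, and with all 12 libraries 2 of 9 were above 0 within f/f. Tgfbr2, the type II receptor for TGF-β and the most abundant, was at 239, 790 and 522 CPM in Hoil1+/+Il4ra f/f and 105, 364 and 624 CPM in Hoil1-/-Il4ra f/f libraries, which overlapped. Tgfbr1, its partner, was at 21.5, 23.2 and 25.7 CPM in Hoil1+/+Il4ra f/f and 3.39, 15.4 and 13.3 CPM in Hoil1-/-Il4ra f/f libraries, which did not.

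Notch target genes and transcription factors of smooth muscle came next. Of 4 Notch targets, 4 were below 0 within f/f (median -1.41) and 4 above 0 within ΔIEC (median 0.41), with 0 called by edgeR and 2 and 0 at an unadjusted p under 0.05. Hes1, the transcriptional repressor induced by Notch, was at 143, 114 and 80.8 CPM in Hoil1+/+Il4ra f/f and 36.2, 45.5 and 49.6 CPM in Hoil1-/-Il4ra f/f libraries, with no overlap (log2 fold change -1.46, SE 0.46, adjusted p = 0.317 in edgeR). Hey1, another Notch target that is strong in endothelial cells, was at 21.3, 73.2 and 38.4 CPM and 0, 11.1 and 35.6 CPM in the same groups, which overlapped. Of 8 transcription factors tested, 6 were below 0 within f/f and 5 above 0 within ΔIEC, with medians of -1.24 and 0.39, 0 called by edgeR, and 3 and 0 at an unadjusted p under 0.05. With all 12 libraries, the medians within f/f were -1.12 and -0.86, with 1 Notch target and 0 transcription factors at an unadjusted p under 0.05. Nkx2-3, a homeobox factor of gut mesenchyme and the most abundant, was at 125, 369 and 225 CPM in Hoil1+/+Il4ra f/f and 75.2, 135 and 189 CPM in Hoil1-/-Il4ra f/f libraries, and Gli1, a factor of Hedgehog signalling in subepithelial mesenchyme, at 7.53, 9.17 and 7.08 CPM and 0, 4.84 and 3.87 CPM. Gli1 did not overlap and Nkx2-3 did.

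Markers of the other CD45- cells varied widely among these libraries. Epithelial markers summed to 12466, 2886 and 4736 CPM in Hoil1+/+Il4ra f/f and 24767, 22002 and 5666 CPM in Hoil1-/-Il4ra f/f libraries, and to 22862, 21041 and 4537 CPM in Hoil1+/+Il4ra ΔIEC and 4059, 1798 and 11958 CPM in Hoil1-/-Il4ra ΔIEC libraries. All 10 epithelial markers were above 0 within f/f and below 0 within ΔIEC, the opposite of the mural genes, with medians of 1.65 and -1.26. Their most abundant gene was Krt8, the keratin of simple epithelia, at 401 to 5372 CPM, and Krt18, its partner, was at 691, 182 and 244 CPM in Hoil1+/+Il4ra f/f and 1665, 2387 and 347 CPM in Hoil1-/-Il4ra f/f libraries. By edgeR 0 of 10 were called in either pair, with 3 at an unadjusted p under 0.05 in each over 11 libraries, and 1 and 2 over 12.

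Fibroblast markers were below 0 within f/f for 8 of 8 genes and above 0 within ΔIEC for 8 of 8, with medians of -0.93 and 1.85 over 11 libraries. With the removed library included, the direction within f/f turned for every one of them, with 8 of 8 above 0 and a median of 0.36. Their sum was 694, 4005 and 5570 CPM in Hoil1+/+Il4ra f/f, 561, 3111 and 9736 CPM in Hoil1-/-Il4ra f/f, 1918, 989 and 3128 CPM in Hoil1+/+Il4ra ΔIEC and 8060, 10783 and 3343 CPM in Hoil1-/-Il4ra ΔIEC libraries, which overlapped within f/f and not within ΔIEC. Col3a1, collagen type III and the most abundant of them, ranged from 132 to 2897 CPM, and Dpt, dermatopontin of the extracellular matrix, from 21.3 to 485 CPM. Endothelial markers were below 0 within f/f for 10 of 10 and above 0 within ΔIEC for 9 of 10, with medians of -1.25 and 0.73 over 11 libraries. With all 12, 2 of 10 were above 0 within f/f and the median was -0.55. Pecam1, the junction molecule CD31 and the most abundant of them, ranged from 285 to 1755 CPM. Flt1, a receptor for vascular endothelial growth factor, ranged from 227 to 1645 CPM. By edgeR 0 fibroblast and 0 endothelial markers were called in either pair, with 5 fibroblast markers at an unadjusted p under 0.05 within ΔIEC and 1 endothelial marker within f/f over 11 libraries, and 1 and 0 over 12.

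Set against the other cells of the same library, the mural genes were separate or overlapping between genotypes depending on the cells used. The ratio of the contractile to the fibroblast sum was 5.24, 1.12 and 1 in Hoil1+/+Il4ra f/f and 0.916, 0.709 and 0.0354 in Hoil1-/-Il4ra f/f libraries, still without overlap. In ΔIEC mice it was 0.691, 1.63 and 0.675 in Hoil1+/+ and 0.29, 0.419 and 1.04 in Hoil1-/- libraries, so that 2 of 3 Hoil1-/- libraries lay below all Hoil1+/+ libraries where the CPM alone lay above. The ratio to the endothelial sum overlapped in both pairs, at 1.89, 0.642 and 1.49 in Hoil1+/+Il4ra f/f and 0.389, 1.03 and 0.0678 in Hoil1-/-Il4ra f/f libraries. The contractile to epithelial ratio was 0.292, 1.56 and 1.18 in Hoil1+/+Il4ra f/f and 0.0208, 0.1 and 0.0608 in Hoil1-/-Il4ra f/f libraries, without overlap, and 0.058, 0.0768 and 0.465 against 0.575, 2.51 and 0.291 within ΔIEC, with overlap. For the 4 vascular mural genes, the ratio to the fibroblast sum overlapped within f/f, at 0.977, 0.347 and 0.236 against 0.242, 0.168 and 0.0687. Their ratio to the endothelial sum was 0.353, 0.198 and 0.352 in Hoil1+/+Il4ra f/f and 0.102, 0.244 and 0.132 in Hoil1-/-Il4ra f/f libraries, which also overlapped. Since part of the epithelial cells was added back before sorting, the epithelial sum also depends on that mixing. The part of epithelial, fibroblast and endothelial RNA in the mural differences was not tested.

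**Figure D4:**
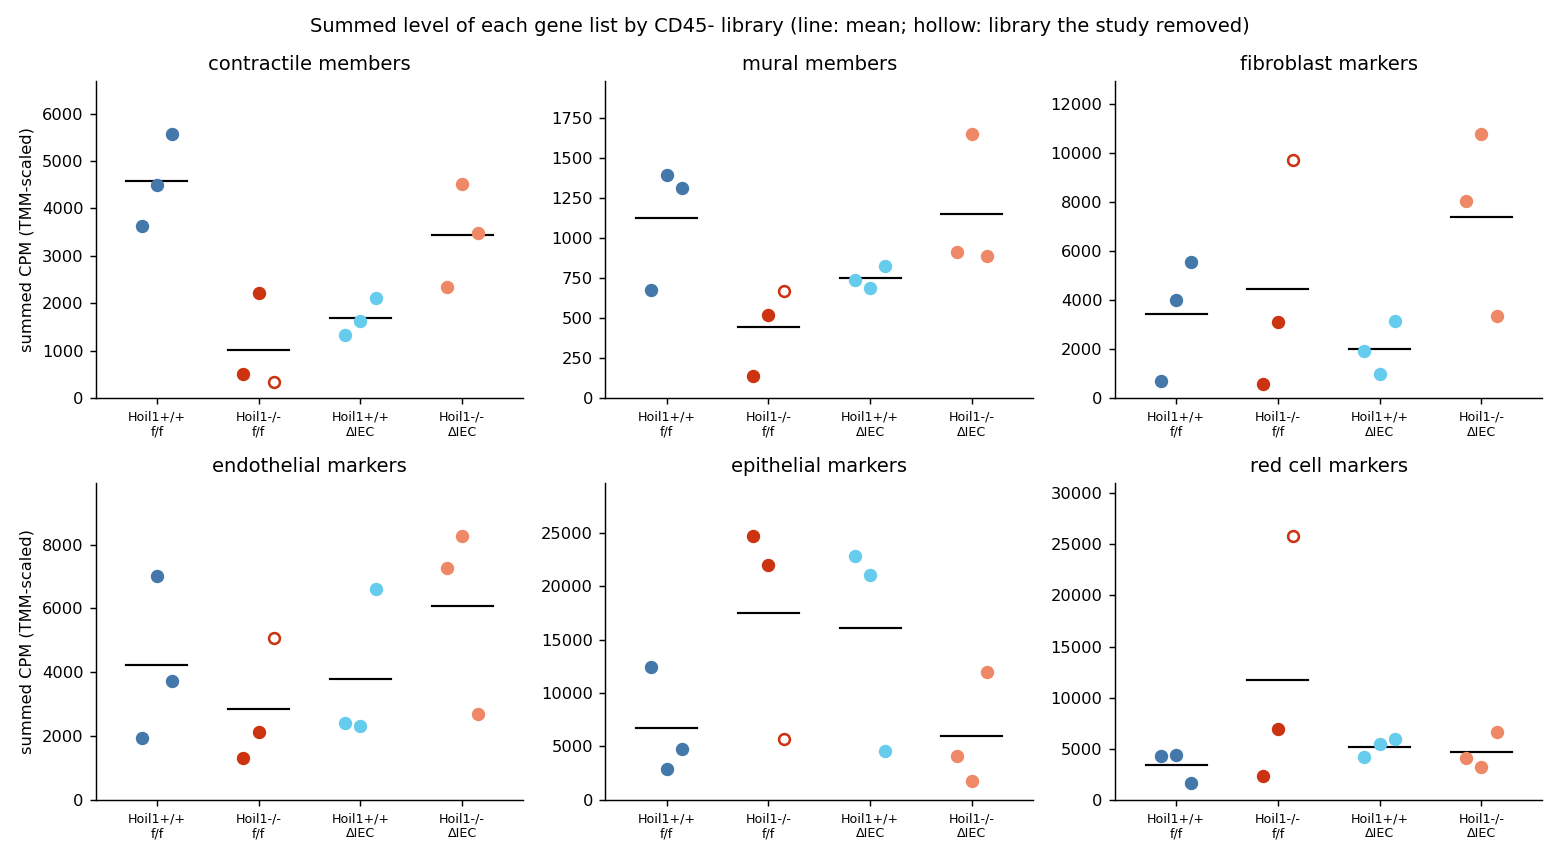
Summed CPM (TMM-scaled) of the 6 contractile and 4 vascular mural genes and of fibroblast, endothelial, epithelial and red cell markers in the 12 CD45- libraries by genotype, 1 point a library, with a line at the mean and a hollow point for the library the study removed. The epithelial sum is high (21041 to 24767 CPM) in 4 libraries whose contractile sum lies between 514 and 2206 CPM, while the lowest contractile sum (344 CPM, the hollow point) stands with an epithelial sum of 5666 CPM.

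**Figure D5:**
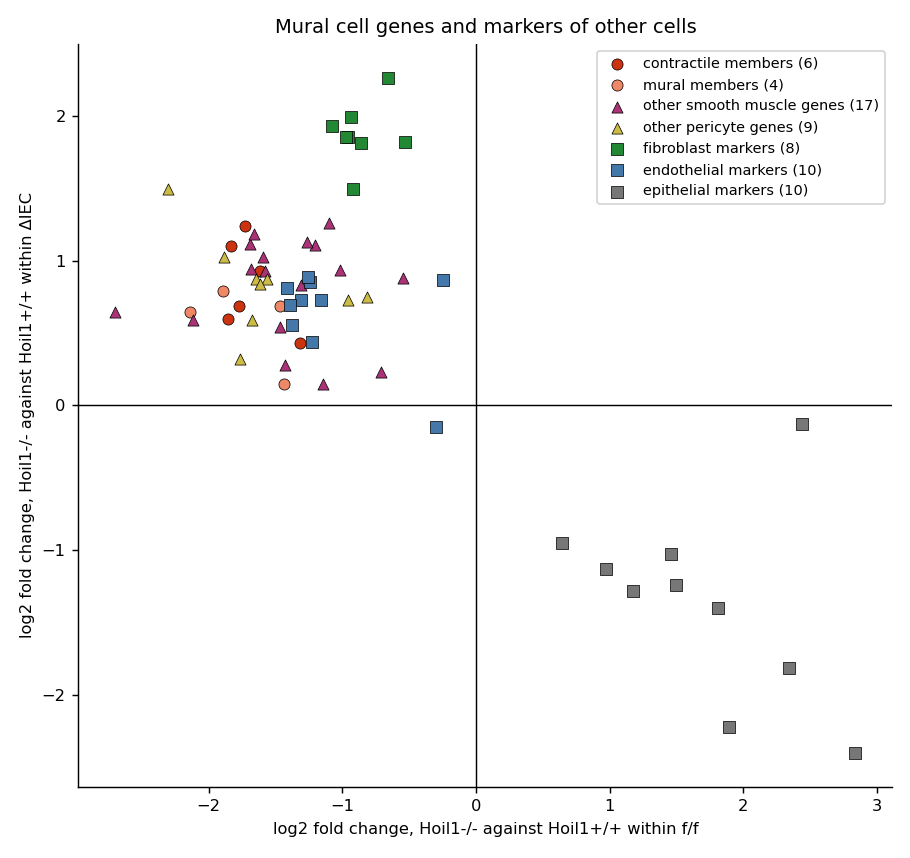
Log2 fold change of Hoil1-/- against Hoil1+/+ within f/f (horizontal) and within ΔIEC (vertical) from edgeR over 11 libraries, 1 point a gene, for the mural genes and the markers of other cells. Kcnj8, Abcc9 and Higd1b, which had no count in a group, are not drawn, and 9 of 12 other pericyte genes are. The mural genes sit at the upper left with fibroblast and most endothelial markers, and the 10 epithelial markers at the lower right, but with all 12 libraries the fibroblast markers lie above 0 within f/f.

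Markers of further cell types were measured as well. Interstitial cells of Cajal, the pacemakers of the gut, were represented by 3 genes that summed to 34.3 to 113 CPM, of which Kit, also a mast cell gene, was the most abundant and was highest in Hoil1-/-Il4ra f/f replicates 1 and 2 (80 and 73.1 CPM). Etv1, a factor of these cells, was at 0 to 11.6 CPM. Enteric glia and neuron markers summed to 19.2 to 98.6 CPM, with Ret the most abundant (4.37 to 57.9 CPM). Over 11 libraries, 8 of 8 had an edgeR log2 fold change below 0 within f/f and 8 of 8 above 0 within ΔIEC. Within f/f, 5 of the 8 had no count in the Hoil1-/- group, and with all 12 libraries 4 of 8 were above 0. Of the mesothelial markers, Msln was at 0 in all 12 libraries and Wt1 reached 2.99 CPM. Leukocyte markers summed to 9.57 to 994 CPM, with Jchain, the joining chain of plasma cell antibodies, the most abundant at 4.88 to 944 CPM, while Cd52 stayed at 0 to 8.06 CPM. Their median log2 fold change in edgeR was 2.38 (-0.86 to 4.06) within f/f over the 6 with a value. Within ΔIEC it was -1.21, with 1 of 7 above 0. Over 12 libraries, 2 of 8 were higher in every Hoil1-/-Il4ra f/f library, beside 4.45% of all genes. Among red cell genes, Hbb-bs was at 1055 to 15886 CPM and Hbb-bt at 38.8 to 678 CPM. By edgeR 0 genes of these 5 lists were called in either Hoil1 comparison, and 1 glia or neuron gene, 2 Cajal cell genes and 1 red cell gene had an unadjusted p under 0.05 within f/f. With all 12 libraries, these counts were 0, 1 and 4.

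The genes whose levels ran most like the 10 were sought among the 9680 other genes with a mean of at least 10 CPM. Over the 12 CD45- libraries, log2(CPM + 1) of Tpm2, the beta tropomyosin of muscle, followed the mean standardized level of the 6 contractile genes most closely (Pearson r = 0.991). Mustn1 (r = 0.974), Mrgprf (0.969), Trarg1 (0.967) and Npy1r (0.964), a receptor for neuropeptide Y on vascular smooth muscle, came next. For the 4 vascular mural genes the closest were Kank2 (0.964), Plekha2 (0.962), Arhgap10 (0.960), Gjc1 (0.960), the gap junction protein connexin 45, and Aoc3 (0.948), the vascular adhesion protein 1. Tpm2 was at 305, 363 and 443 CPM in Hoil1+/+Il4ra f/f, 60.1, 185 and 42.8 CPM in Hoil1-/-Il4ra f/f, 137, 141 and 174 CPM in Hoil1+/+Il4ra ΔIEC and 232, 380 and 308 CPM in Hoil1-/-Il4ra ΔIEC libraries, without overlap in either pair. Kank2 was at 71.6, 159 and 116 CPM, 6.59, 36.4 and 27.1 CPM, 51.2, 50.4 and 98.1 CPM and 97.2, 157 and 71.1 CPM in the same order. These values are a description over 12 libraries that share depth, cell composition and genotype, and nothing was tested on them.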

How the data were processed

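The deposited values are raw read counts per gene. Before counting with featureCounts on ENSEMBL genes, the authors removed adapters and poor bases (cutadapt) and mapped reads to mm10 with STAR. Tool versions and the strand and multi-mapping options are not given in the sources used here. Of 39056 gene rows, 38872 matched GENCODE M21 without the ID version, and no column of per-sample values was left unused. CD45- libraries held 6.028 to 68.35 M counts on genes and CD45+ libraries 14.94 to 76.81 M.

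Counts were tested with edgeR 4.0.16 in R 4.3.3 (TMM scaling, filterByExpr at 10 counts, total at least 15, quasi-likelihood F test with Hoil1, Il4ra and their interaction), within the CD45- fraction over the 11 libraries the study kept and for the fractions over 21, with Benjamini-Hochberg adjustment over all genes tested and a threshold of 0.05. CPM values are TMM-scaled over the 12 CD45- libraries, or over all 24 for the fractions. The fit was tested on simulated data. Per the study, samples came from individual mice of more than 1 litter. Both fractions may come from the same mice, but the labels do not tie them, and the fraction fit treats its libraries as independent. The floor of 3 counts covers counting error only.

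The 10 genes and the lists of other smooth muscle genes, other pericyte genes, ligands, receptors, Notch targets, transcription factors, and fibroblast, endothelial, epithelial, enteric glia and neuron, interstitial cell of Cajal, leukocyte, mesothelial and red cell markers were chosen with earlier results of these data known. Named genes were the 10, Rbck1 and Ptprc, the most abundant gene of each list and its gene with the largest averaged Hoil1 log2 fold change, and the 5 genes most like the contractile and the mural genes. One gene that this rule names is not reported here. Other names were chosen after their values were seen, as were Xist and Il4ra for checks. Mkl1 and Mkl2 are listed under their M21 symbols Mrtfa and Mrtfb. Alternatives were all libraries, RLE scaling, no filter, DESeq2 1.42.0, the likelihood ratio test, exactTest, a term for sex from Xist, and leaving out each library. Promoters came from RefSeq (GRCm38.p6).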

Additional observations from a re-analysis of the deposited data

Results flagged for a closer look

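Acta2 and Tagln were singled out because every Hoil1-/- library lay below every Hoil1+/+ library within f/f and above every one within ΔIEC. The Hoil1 log2 difference in ΔIEC minus that in f/f was 2.94 for Acta2 and 2.97 for Tagln. The test of this difference did not pass the threshold in edgeR's quasi-likelihood test (adjusted p = 0.129 for each). It passed in edgeR's likelihood ratio test (adjusted p = 0.018 for Acta2 and 0.0163 for Tagln) and in DESeq2 (adjusted p = 0.00629 and 0.0061), which called 1223 and 1466 of 16453 genes. With a library left out, the difference ran from 2.22 to 4.48 for Acta2 and from 2.22 to 4.64 for Tagln. Both genes were singled out for the separation of these same libraries, so these p-values are not independent evidence of it. Both directions were held by 1.13% of the 15332 genes compared.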

How the results depend on the processing

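The CD45- against CD45+ difference held for 10 of 10 genes under every alternative run (8472 to 9806 genes called in all). In the Hoil1 and Il4ra comparisons, the number of genes called depended on the test and the libraries, and the cause was not tested. For the averaged Hoil1 difference (3 genes), the count was 0 with all 12 libraries, 1 with RLE scaling, 168 by DESeq2, 134 by the likelihood ratio test, 1 with sex as a term and 1 to 173 with a library left out. Within f/f (6 genes) it was 0 with all libraries, 11 with no filter, 613 by DESeq2, 350 by the likelihood ratio test, 3 with sex as a term, 203 by exactTest and 0 to 474 with a library left out, and the number of the 10 genes called was 4 by DESeq2, 1 by the likelihood ratio test and 0 to 7 with a library left out. Within ΔIEC (1 gene) it was 0 with all libraries, 138 by DESeq2, 62 by the likelihood ratio test, 40 by exactTest and 0 to 2 with a library left out. For Il4ra (0 genes, with 971 at an unadjusted p under 0.05 in edgeR) it was 159 by DESeq2, 143 by the likelihood ratio test and 0 to 220 with a library left out, with 0 to 1 of the 10 genes. For the interaction (0 genes, with 3409 at an unadjusted p under 0.05) it was 1 with no filter, 1466 by DESeq2, 1223 by the likelihood ratio test and 0 to 1202 with a library left out, the highest without Hoil1+/+Il4ra ΔIEC replicate 3, and 6, 6 and 0 to 7 of the 10 genes were called by these last 3.

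Of the Hoil1 and interaction log2 fold changes of the 10 genes, 2 changed sign. For the Il4ra difference, whose values lie near 0 for most of the 10, 6 were above 0, against 9 with all 12 libraries, 5 with sex as a term and 4 to 10 with a library left out, the highest without Hoil1-/-Il4ra f/f replicate 2. The averaged Hoil1 difference of Tagln ran from -1.08 to 0.13 with a library left out, the latter without Hoil1-/-Il4ra f/f replicate 1. That of Pdgfrb within ΔIEC ran from -0.18 to 0.32, the former without Hoil1-/-Il4ra ΔIEC replicate 2. The share of all genes without overlap in 11 libraries was computed after seeing the data. With total counts in place of TMM, the same 8, 3 and 2 genes did not overlap, beside 15.4%, 7.74% and 1.53% of all genes. No paired analysis was possible because the labels give no replicate numbers and do not tie the fractions of a mouse, and samples were numbered in accession order. Except for Cnn1 in 1 library, all 10 genes lay above the level of 3 counts in every CD45- library.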
